A study of Homo sapiens with 4 samples.

Results

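The spectrin, plakin and dystrophin giants are very large proteins that tie the actin cytoskeleton to membranes, microtubules, intermediate filaments and the nucleus. The m7G peaks in the mRNAs of 9 of them (DST, MACF1, PLEC, SPTB, SPTBN1, DMD, UTRN, SYNE1 and SYNE2) were taken from the peak lists of HL60 and HL60/MX2 cells. A peak was a member when it overlapped an exon of 1 of these genes on the same strand by at least 1 bp, in the hg19 genome with the GENCODE annotation (release 44). This gave 22 of the 8070 peaks of HL60 and 25 of the 8122 peaks of HL60/MX2, 47 of 16192 in all. The genes were chosen by name with their peaks in view, so the number of peaks is a description and not a finding.

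HL60 is a human promyelocytic leukaemia line, labelled wild type, and HL60/MX2 is its drug-resistant counterpart, both grown in RPMI-1640 with fetal calf serum and collected in logarithmic growth. From each line, poly(A) RNA was decapped and fragmented, and the fragments bound by an antibody against m7G were sequenced (MeRIP-seq). How complete the decapping was cannot be read from the peak lists. The series holds 4 libraries, an enriched and an input library of each line, and what follows rests on the peaks called in the enriched library of each line, a single library per line. No spread between libraries can be measured from these lists, no test between the lines was made, and the 95% intervals below (exact Poisson for counts, exact Clopper-Pearson for shares) cover counting error only.

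A peak comes with its position, strand and score but with no number of reads, which leaves its depth unknown. The authors' score has no stated scale, with a median of 197 in HL60 and 259.7 in HL60/MX2, and each member's score is therefore given with its percentile in its own list where it is first described. Scores of different lines are not compared. The input libraries and RNA levels were not analysed here, so a gene without a peak and a gene that is not expressed cannot be told apart.

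The 9 proteins share a plan. Each opens with a pair of calponin homology domains that bind actin filaments, followed by a rod of spectrin repeats, bundles of 3 helices that make the protein long and springy, and by an end that differs between the families. In dystrophin (DMD) and utrophin (UTRN) that end binds dystroglycan in the plasma membrane, in the spectraplakins dystonin (DST) and MACF1 it binds microtubules, in plectin (PLEC) it carries plakin repeats that bind intermediate filaments, and in the nesprins (SYNE1 and SYNE2) it anchors the protein in the outer nuclear membrane. Beta spectrins (SPTB in red cells, SPTBN1 in most others) pair with alpha spectrin to form the mesh under the plasma membrane. Defects of DMD are known as the cause of Duchenne muscular dystrophy.

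The HL60 peaks fell in 5 of the 9 genes (DST, MACF1, DMD, SYNE1 and SYNE2) and the HL60/MX2 peaks in 8, where PLEC, SPTB and UTRN were added. SPTBN1 had none in either list. Over all 20163 protein-coding genes the share with a peak was 27.0% in HL60 and 29.5% in HL60/MX2. These genes are long, and among the 836 genes with at least as much exon as the shortest member the shares were 55.3% and 57.7%. DST had the most peaks in HL60, 8, against 4 in HL60/MX2, while MACF1 had 1 and 4. SYNE1 had 5 in each line, DMD 3 in each, and SYNE2 5 and 4.

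Per kb of exon, merged over all transcripts of each gene, the density over the 9 genes was 0.0690 peaks in HL60 (0.0432-0.104) and 0.0784 in HL60/MX2 (0.0507-0.116). Over all protein-coding genes the density was 0.0694 and 0.0699 per kb, so the members' intervals held the density of all genes in both lines. Over the 827 other genes with at least as much exon as the shortest member, it was 0.0576 and 0.0525. The members' intervals held these values too, in HL60/MX2 near the lower bound. On the reference transcripts alone (the Ensembl canonical transcript of each gene), which leave out retained introns and alternative ends, the density was 0.131 (0.0809-0.200) and 0.137 (0.0858-0.207), beside 0.0917 and 0.0921 for all genes, again inside the intervals. TTN and NEB, the giants of the muscle sarcomere, carried 0.256 (0.182-0.350) and 0.184 (0.122-0.265) per kb of merged exon, and these intervals did not overlap those of the 9 genes. On reference transcripts they did, with 0.266 (0.186-0.368) and 0.192 (0.125-0.281) for TTN and NEB. The 9 genes were chosen with their peaks in view, and the intervals cover counting error only. Whether the intervals overlap is therefore no test between the sets. Between the members the intervals were wide and overlapped within each line. They came closest to parting in HL60, between MACF1 at 0.0142 (0.000359-0.0789) and DST at 0.166 (0.0717-0.327).

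**Figure D1:**
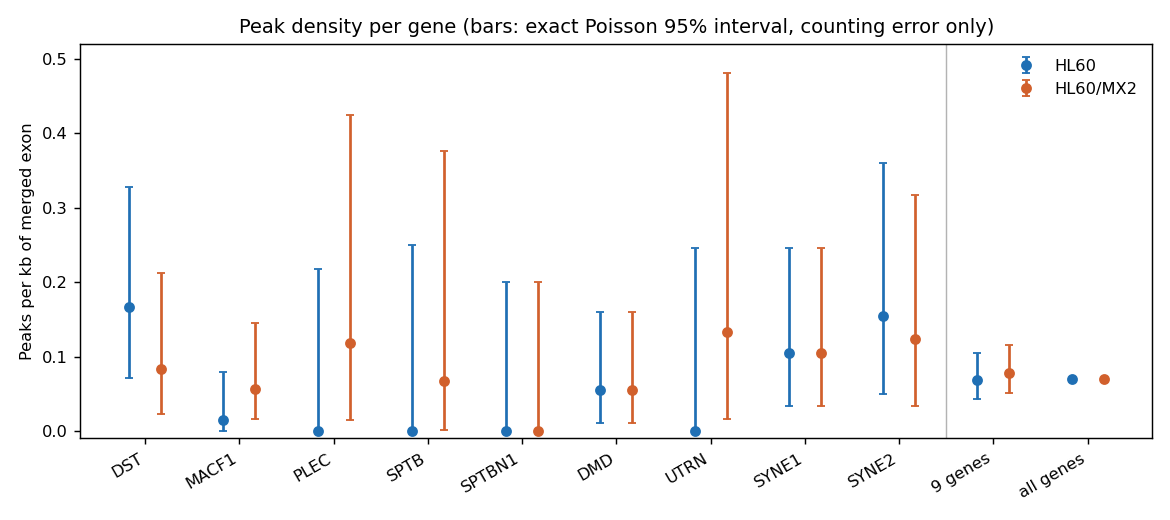
Peaks per kb of merged exon (vertical axis) in each of the 9 genes, in the 9 together and in all protein-coding genes, for HL60 (blue) and HL60/MX2 (orange), 1 library each. Points are the counts divided by exon length and bars are exact Poisson 95% intervals. The 9 genes together (0.0690 and 0.0784) sit beside all genes (0.0694 and 0.0699), and the interval of every single gene is wide.

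Of the members, 2 peaks of each list overlapped a peak of the other line by at least 1 bp, 9.09% of the HL60 members (1.12-29.2%) and 8.0% of the HL60/MX2 members (0.984-26.0%). Over the whole lists the shares were 6.13% and 6.09%. The overlapping peaks lay in DST and DMD, in codons for spectrin repeats. They lay in 2 exons, and no other exon of the reference transcripts held peaks of both lines. The sequences of the overlapping peaks are shown because they are the positions found in both lines, with the stretch present in both lists in capitals, on the mRNA strand of hg19.

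DST exon 85, chr6:56357072-56357231, minus strand: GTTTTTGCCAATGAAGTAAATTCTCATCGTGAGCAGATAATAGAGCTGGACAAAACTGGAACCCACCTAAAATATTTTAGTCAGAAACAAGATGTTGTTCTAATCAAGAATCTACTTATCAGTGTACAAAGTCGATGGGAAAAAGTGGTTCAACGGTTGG
DMD exon 12, chrX:32632460-32632570, minus strand: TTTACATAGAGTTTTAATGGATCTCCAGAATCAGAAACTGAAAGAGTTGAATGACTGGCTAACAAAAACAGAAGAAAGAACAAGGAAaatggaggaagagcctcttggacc

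The DST peak had the same start and end in both lists. It covered 160 of the 207 bp of exon 85 of 104 up to the 5' end of the exon, and codons 6851 to 6904 of 7818, inside repeat 36 of the 40 spectrin repeats found in DST. Its score was 137 in HL60 (percentile 34.5) and 365.9 in HL60/MX2 (percentile 63.6). The DMD peak ended at the same exon edge in both lists and was 111 bp long in HL60 and 87 bp in HL60/MX2, out of 151 bp of exon 12. It lay where the first spectrin repeat found in dystrophin passes into the second, from codon 444 to codon 481 in HL60 and to codon 473 in HL60/MX2. Its score was 203.8 in HL60 (percentile 51.9) and 338.4 in HL60/MX2 (percentile 60.6), each within its own list.

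In DST, which links actin and microtubules to adhesion sites and is made in epithelial, neuronal and muscle forms, the 8 HL60 peaks ran from exon 24 to exon 85 of the reference transcript. Their scores were 79.6, 137, 143.3, 189.8, 196, 248.4, 431.7 and 472, at percentiles 14.0, 34.5, 36.3, 49.0, 49.6, 61.4, 84.5 and 87.2 of the HL60 list. The highest covered all 102 bp of exon 78 (chr6:56368795-56368896), codons 6489 to 6522 in spectrin repeat 33. The second highest covered 50 of the 126 bp of exon 24 (chr6:56500387-56500436), in repeat 4. Another peak covered the whole of exon 83 (171 bp), in repeat 35, and 1 covered all 99 bp of exon 36 and reached past its edge into sequence that other DST transcripts keep as exon. The exon 36 peak lay at codons 1611 to 1643, between repeats 7 and 8.

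A pair of HL60 peaks lay in exon 40 of DST, a single exon of 5508 bp, at chr6:56471618-56471818 and chr6:56470962-56471324. No other exon of the 9 reference transcripts held more than 1 peak of the same line. The exon lies in 3 of the 21 coding transcripts (DST-204, DST-208 and DST-241). The peaks covered codons 2536 to 2603 and 2701 to 2822, downstream of the plakin repeat stretch found at codons 1782 to 2161, in a part without spectrin repeats between repeats 7 and 8. The peak in exon 42, in repeat 8 and with the lowest DST score of 79.6, lay in 2 of the 21 coding transcripts. The other 5 HL60 peaks of DST lay in 10 to 13 of them.

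In HL60/MX2, DST had 4 peaks, with scores of 127.8, 365.9, 464 and 646 (percentiles 24.6, 63.6, 73.2 and 85.3). The highest covered 96 of the 184 bp of exon 28 (chr6:56497652-56497747), codons 1237 to 1269, between spectrin repeats. The lowest, in exon 89, covered codons 7096 to 7134, at repeat 38. The peak of score 464 (chr6:56707853-56708218, 366 bp) lay outside the reference transcript, over exon 1 of the coding transcripts DST-204, DST-206, DST-207 and DST-229, which start downstream of the reference transcript. In DST-204, DST-206 and DST-207, 91 bp of it are coding sequence. It was GC-rich, at 63.4%, against 41.6% for the reference transcript of DST. HL60 had no peak there.

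MACF1, the close relative of DST, had 1 peak in HL60, with a score of 64.8 (percentile 7.31). It lay at chr1:39877731-39877951 in exon 1 (4975 bp) of 6 in MACF1-229, a short coding transcript of 1668 codons, and in no other coding transcript of the 24. The 4 HL60/MX2 peaks had scores of 57.1, 62.9, 76.6 and 89.3, at percentiles 2.63, 4.69, 9.78 and 13.5 of their list. They covered all 167 bp of exon 50 (repeat 15 of 40), part of exon 60 (repeat 25), part of exon 98 (codons 7320 to 7333, past the last repeat, on the microtubule-binding side of the protein) and 222 bp of the 3'UTR in exon 101. No other member lay in the 3'UTR of a reference transcript. The MACF1 peaks of both lines ranked low in their lists, and no exon of MACF1 held a peak of both lines.

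PLEC, plectin, had no peak in HL60 and 2 in HL60/MX2. The larger, at chr8:144998903-145000052, was the longest member at 1150 bp, with a score of 278 (percentile 52.8). It covered 34% of exon 31 of 32, from the 5' edge of this exon of 3381 bp, and codons 1349 to 1732 of 4547. Exon 31 is the exon that codes for the coiled-coil rod of plectin and is skipped in the rodless form, and 13 of the 14 coding transcripts hold it. The peak lay between the last of the 6 spectrin repeats found in plectin, ending at codon 1296, and the first plakin repeat stretch, from codon 2714. The other peak (chr8:145049401-145049543, score 89.6, percentile 13.5) lay in an alternative 5' exon of PLEC-208, PLEC-209, PLEC-210 and PLEC-211, with 137 bp of coding sequence, outside the reference transcript. Plectin is known for many isoforms that differ in this 5' exon. Both peaks were GC-rich, at 73.1% and 67.1%, and so is the transcript, at 66.8%.

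Of the beta spectrins, SPTB, the erythroid form, had 1 peak, in HL60/MX2 (chr14:65268944-65269035). It covered the whole of exon 5 (92 bp) of 36 with a score of 56.2, at percentile 2.47 of the list the lowest of the HL60/MX2 members. SPTBN1, with 36 exons and 10.2 kb of reference transcript, had no peak in either line.

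In dystrophin, the HL60 peaks all lay in the upstream part of the rod. Beside exon 12, they covered all 181 bp of exon 21 (chrX:32503036-32503216, codons 875 to 935, repeat 5 of 22) and 15 bp at the 5' edge of exon 27 (codons 1202 to 1206, repeat 8). Exon 21 had the highest score of the HL60 members, 483.7 (percentile 88.1). In HL60/MX2, the peaks besides exon 12 lay at the other end, past the last repeat, over all 202 bp of exon 65 (chrX:31227615-31227816, codons 3121 to 3188, score 269, percentile 51.3) and over 20 bp of exon 67 (codons 3263 to 3269, score 65.3, percentile 6.11). This is the cysteine-rich part that binds beta-dystroglycan, and the codons under the exon 65 peak include 4 for cysteine. Exons 65 and 67 lie in 26 and 27 of the 42 coding transcripts, which include the short dystrophins. Exon 12 lies in 5 of them, and exons 21 and 27 in 2 each. The reference transcript holds all of these exons, so the counts do not show which isoforms carried the peaks.

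Utrophin, the homologue of dystrophin that is found in most tissues, had no peak in HL60 and 2 in HL60/MX2. These covered all 93 bp of exon 6 (chr6:144745122-144745214) with a score of 290 (percentile 54.4), and 77 of the 135 bp of exon 28 (chr6:144806521-144806597), at repeat 9 of 20, with a score of 266 (percentile 50.6). Exon 6 lies in 3 and exon 28 in 1 of the 9 coding transcripts.

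The nesprins accounted for 10 members in HL60 and for 9 in HL60/MX2. In SYNE1 (nesprin-1) the HL60 peaks lay in exons 18, 51, 71, 93 and 124 of 146, and the HL60/MX2 peaks in exons 6, 14, 20, 30 and 38. The HL60 scores were 184.5, 232.8, 107, 351.6 and 113 in this order, at percentiles 47.8, 57.7, 24.4, 77.0 and 26.5 of the HL60 list. The HL60/MX2 scores were 808, 588, 187.8, 60.6 and 550, at percentiles 91.0, 82.6, 37.5, 4.20 and 80.3 of the HL60/MX2 list. The peak in exon 6 (chr6:152841594-152841677), which covered all 84 bp of it, had the highest score of the HL60/MX2 members, at percentile 91.0 of the list. Along the transcript, the HL60/MX2 peaks fell between 3.0% and 20.1% of the length from the 5' end, and the HL60 peaks between 8.73% and 83.3%. Of the 28 coding transcripts, the exons with HL60 peaks lie in 13 (exon 18), 2 (exons 51 and 71), 3 (exon 93) and 4 (exon 124). Those with HL60/MX2 peaks lie in 12 (exons 6, 14 and 20), 9 (exon 30) and 3 (exon 38).

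In SYNE2 (nesprin-2) the HL60 peaks lay in exons 43, 46, 75, 78 and 94 of 116, with scores of 225.5, 85.1, 74.8, 149.7 and 194.6 (percentiles 56.9, 16.7, 12.8, 38.5 and 49.4). The HL60/MX2 peaks lay in exons 19, 36 and 55, with scores of 414, 298 and 70.0 (percentiles 68.7, 55.5 and 7.61). The fourth HL60/MX2 peak, with a score of 106.6 (percentile 19.3, chr14:64501212-64501310), covered all of a 99 bp exon that is exon 45 of 115 in SYNE2-211 and in no other coding transcript. The median position along the transcript was 65.1% in HL60 (5 peaks) and 24.8% in HL60/MX2 (3 peaks). In both nesprins the HL60/MX2 peaks reached less far towards the 3' end, up to 20.1% in SYNE1 and 51.7% in SYNE2, against 83.3% and 79.3% in HL60. DMD and DST went the other way, with the farthest peak at 71.7% in HL60/MX2 and 27.5% in HL60 for DMD, and at 87.4% and 84.5% for DST. Over all members on reference transcripts the medians were 34.5% in HL60 (21 peaks) and 28.4% in HL60/MX2 (22 peaks), and in MACF1 the 4 HL60/MX2 peaks lay from 54.2% to 95.1%. No peak reached the exons for the KASH end that anchors either nesprin in the nuclear membrane.

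**Figure D2:**
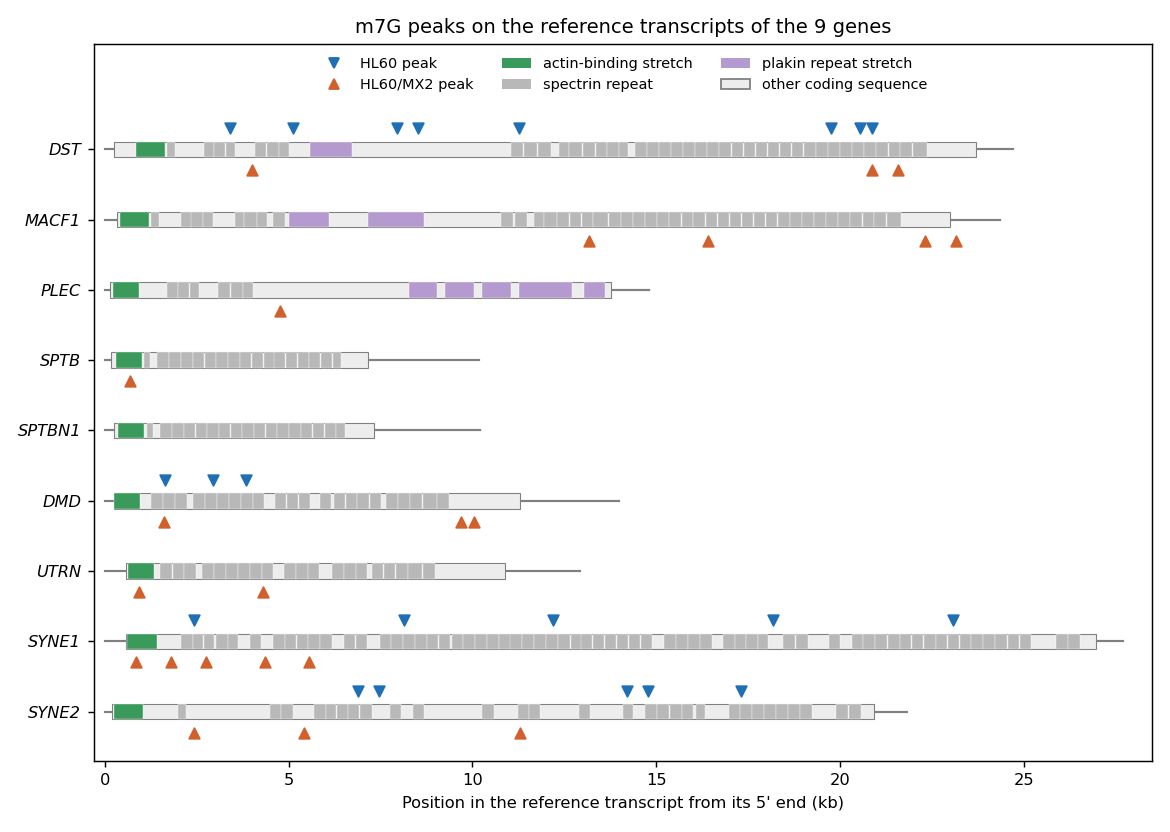
Position of each peak along the reference transcript of its gene (horizontal axis, kb from the 5' end), with HL60 peaks above (blue) and HL60/MX2 peaks below (orange). Boxes are the coding sequence, with the actin-binding stretch in green, spectrin repeats in grey and plakin repeat stretches in purple, and thin lines are the UTRs. The 4 peaks outside the reference transcripts are not drawn. The HL60/MX2 peaks of SYNE1 crowd at the 5' end. The HL60 peaks drawn, in DST, DMD, SYNE1 and SYNE2, lie between the first and the last spectrin repeat found.

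The coding peaks were placed on the proteins and counted by domain. Spectrin repeats, the actin-binding stretch and plakin repeats were located by a profile search among the 9 proteins, which found 17 repeats in SPTB and SPTBN1, 22 in dystrophin, 20 in utrophin, 64 in SYNE1 and 29 in SYNE2. Divergent repeats can be missed by such a search. All 21 coding peaks of HL60 lay between the first and the last spectrin repeat found in their gene, a span called the rod here (100%, 83.9-100%). Of the 21 coding peaks of HL60/MX2, 13 did (61.9%, 38.4-81.9%). By this rule the DST exon 36 peak and exon 40 pair count as in the rod, although no repeat was found there. The rod makes up 79.3% of the codons of the 9 genes together. It runs over codons 480 to 7378 of 7818 in DST and 503 to 8657 of 8797 in SYNE1. In SYNE2 it runs over codons 604 to 6791 of 6907, and in DMD over codons 338 to 3039 of 3685. In PLEC, without an HL60 peak, it runs only over codons 522 to 1296 of 4547. The HL60 coding peaks lay in DST, DMD, SYNE1 and SYNE2 alone, so the pooled 79.3% is not a share matched to them. Of the HL60 peaks 16 lay on a repeat (76.2%, 52.8-91.8%), against 9 in HL60/MX2 (42.9%, 21.8-66.0%). Repeats make up 55.4% of the codons of the 9 genes together, from 13.0% in PLEC to 75.5% in SYNE1. In MACF1, PLEC, SPTB and UTRN, only HL60/MX2 had coding peaks on the reference transcript, so the lines are counted over different genes. These classes were set after the positions were seen, and peaks of 1 gene share a library and a transcript. The difference between the lines was not tested.

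Outside the rod so defined lay 8 coding peaks of HL60/MX2. Of these, 3 lay in actin-binding stretches and 1 between that stretch and the rod (SYNE1 exon 14). The other 4 lay past the last repeat found (MACF1 exon 98, PLEC exon 31 and DMD exons 65 and 67). The PLEC peak lies in plectin's coiled-coil rod, which the span of spectrin repeats does not take in. The actin-binding stretches make up 4.75% of the codons. They held 14.3% of the coding peaks of HL60/MX2 (3.05-36.3%) and 0 of 21 in HL60. Each of the 3 covered a whole exon, as did 32.0% of the HL60/MX2 members and 21.7% of the list. Each contained GGAAA or GGAAG, as did 48.0% of the HL60/MX2 members and 43.6% of the list. These letters spell GGAAR, a motif that the study derived from its own peaks, so they are not independent of these data. The study also reported CUGKR, which was not searched here, and motifs that differed between the lines. Besides, 3 peaks are too few to set them apart. Their sequences follow on the mRNA strand of hg19, with the motif in capitals.

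SPTB exon 5, chr14:65268944-65269035, minus strand: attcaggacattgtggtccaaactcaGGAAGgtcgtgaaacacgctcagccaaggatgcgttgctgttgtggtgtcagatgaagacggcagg
UTRN exon 6, chr6:144745122-144745214, plus strand: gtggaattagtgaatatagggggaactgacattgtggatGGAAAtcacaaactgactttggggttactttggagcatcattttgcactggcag
SYNE1 exon 6, chr6:152841594-152841677, minus strand: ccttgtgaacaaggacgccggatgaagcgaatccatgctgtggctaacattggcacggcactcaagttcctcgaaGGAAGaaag

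These exons code for codons 159 to 189 of SPTB, 105 to 135 of utrophin and 76 to 103 of SYNE1. Their scores were far apart, 56.2 in SPTB, 290 in UTRN and 808 in SYNE1.

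The 9 reference transcripts have 725 exons, of which 20 (2.76%, 1.69-4.23%) lay under an HL60 peak, and 22 (3.03%, 1.91-4.56%) lay under one of HL60/MX2. Over the exons of all reference transcripts the shares were 3.11% and 3.21%, near those of the members. Counting all members of a gene, the peaks per exon in HL60 were 0.0769 in DST, 0.0431 in SYNE2, 0.0380 in DMD, 0.0342 in SYNE1 and 0.00990 in MACF1. In HL60/MX2 they were 0.0625 in PLEC, 0.0396 in MACF1, 0.0385 in DST, 0.0380 in DMD, 0.0345 in SYNE2, 0.0342 in SYNE1, 0.0278 in SPTB and 0.0267 in UTRN. These ratios count peaks outside the reference transcript too, but divide by its exons alone. The share of reference exons under a peak leaves such peaks out. In HL60 this share was 6.73% in DST, 4.31% in SYNE2 and 0% in MACF1. In HL60/MX2 it was 3.96% in MACF1, 3.125% in PLEC, 2.88% in DST, 2.78% in SPTB, 2.67% in UTRN and 2.59% in SYNE2. In SYNE1 and DMD it was the same in both lines, 3.42% and 3.80%.

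Every member lay wholly within exons of its gene, and 19 of 22 in HL60 and 24 of 25 in HL60/MX2 started or ended exactly at an exon edge (86.4% and 96.0%, beside 70.6% and 71.5% of the peaks on exons in the whole lists). Exon edges in the genome are splice junctions in the mRNA, and the lists hold peaks already chosen to lie over exons. A whole exon of the reference transcript was covered by 6 HL60 peaks (27.3%, 10.7-50.2%) and by 8 HL60/MX2 peaks (32.0%, 14.9-53.5%), against 22.3% and 21.7% over the lists. The lengths of members had a median of 131 bp in HL60 and 119 bp in HL60/MX2, and 129 and 133 bp in the lists.

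The shortest members, of 8, 15 and 20 bp, each touched an exon edge. They are shown in their whole exon, with the bases of the peak in capitals, so that the place of so short a stretch can be seen.

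SYNE2 exon 75, HL60, chr14:64596500-64596619, plus strand: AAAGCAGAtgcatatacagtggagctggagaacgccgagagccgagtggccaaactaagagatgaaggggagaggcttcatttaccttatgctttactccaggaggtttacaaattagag
DMD exon 27, HL60, chrX:32466573-32466755, minus strand: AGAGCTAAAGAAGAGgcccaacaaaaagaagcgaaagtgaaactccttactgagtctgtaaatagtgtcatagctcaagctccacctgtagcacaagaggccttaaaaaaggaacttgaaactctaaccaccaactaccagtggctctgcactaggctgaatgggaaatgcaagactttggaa
DMD exon 67, HL60/MX2, chrX:31222078-31222235, minus strand: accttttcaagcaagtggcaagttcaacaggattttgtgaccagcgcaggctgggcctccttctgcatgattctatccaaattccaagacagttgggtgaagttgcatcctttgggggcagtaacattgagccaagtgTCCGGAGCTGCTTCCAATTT

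The first 2 lie at the 5' edge of their exon and the last at the 3' edge. Despite its 15 bp, the DMD exon 27 peak had a score of 351.6 (percentile 77.0), while the SYNE2 exon 75 peak had 74.8 (percentile 12.8) and the DMD exon 67 peak 65.3 (percentile 6.11).

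Just outside the rule lay 4 listed peaks within the span of these genes. A MACF1 peak of HL60/MX2 (chr1:39902147-39902152) lay 2 bp from an exon of the gene, and a UTRN peak of the same line (chr6:144607682-144607707) lay 725 bp from one. The other two were on the opposite strand, over exons of ESR2 inside SYNE2 in HL60 and of ESR1 inside SYNE1 in HL60/MX2. None of the 47 members overlapped an exon of another protein-coding gene on its own strand.

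The scores of the members had medians near those of the lists. In HL60 they ran from 64.8 to 483.7 with a median of 192, and 9 of 22 were at or above the list median of 197. In HL60/MX2 they ran from 56.2 to 808 with a median of 266, and 13 of 25 were at or above 259.7. The highest 10% of scores in the list held 0 members in HL60 and 1 in HL60/MX2 (SYNE1 exon 6), and the lowest 10% held 1 and 7. Of those 7, 3 were in MACF1 and 1 each in SPTB, DMD, SYNE1 and SYNE2. Identical scores recur, since 16 HL60 members and 14 HL60/MX2 members had exactly the score of some other peak in the same list, as 57.8% and 56.5% of the peaks of these lists do. The SYNE1 exon 93 and DMD exon 27 peaks of HL60 had the same score of 351.6, each with 51 other peaks at that value.

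**Figure D3:**
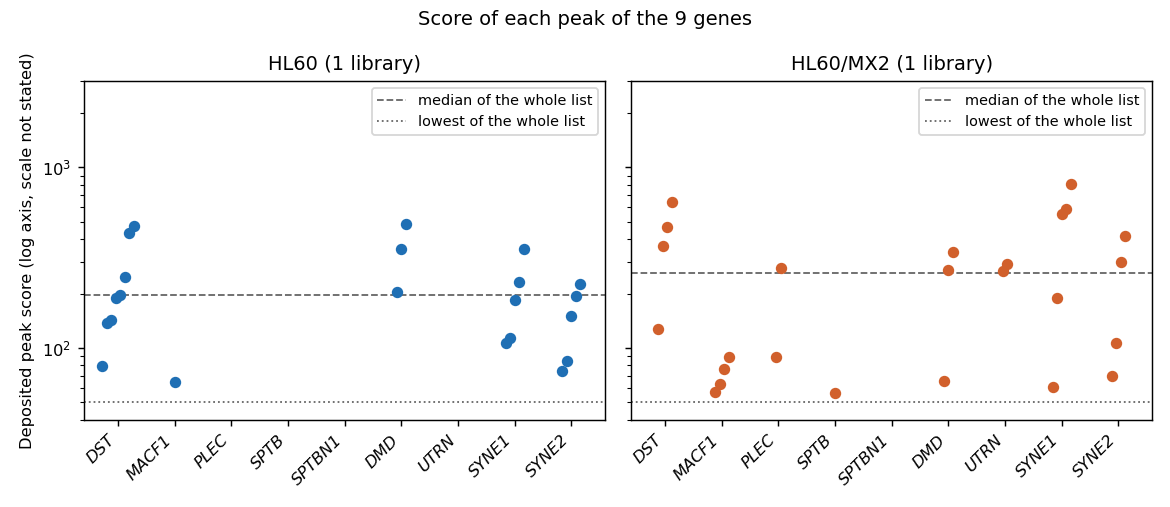
Deposited score of each peak (vertical axis, log scale) by gene, in HL60 (left) and HL60/MX2 (right), 1 library each. Each point is 1 peak, the dashed line is the median and the dotted line the lowest score of the whole list. MACF1 lies near the lowest score in both lines, and SYNE1 of HL60/MX2 holds the highest member, at 808.

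Transcripts of these genes are annotated in many forms, from 4 coding transcripts in each spectrin to 42 in DMD. In SYNE1 and DMD, the peaks lay in between 4.76% and 64.3% of the coding transcripts of their gene, and the PLEC exon 31 peak in 92.9%. A peak lay in an exon of each coding transcript whose span reaches it for 14 of 22 HL60 peaks and 21 of 25 HL60/MX2 peaks. The members outside the reference transcripts were 1 in HL60 (MACF1) and 3 in HL60/MX2 (DST, PLEC and SYNE2). By the reference transcripts, 21 of 22 HL60 peaks lay in the CDS (95.5%, 77.2-99.9%) and 21 of 25 HL60/MX2 peaks (84.0%, 63.9-95.5%). The CDS makes up 88.6% of these transcripts by length, the 5'UTR 1.67% and the 3'UTR 9.77%.

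**Figure D4:**
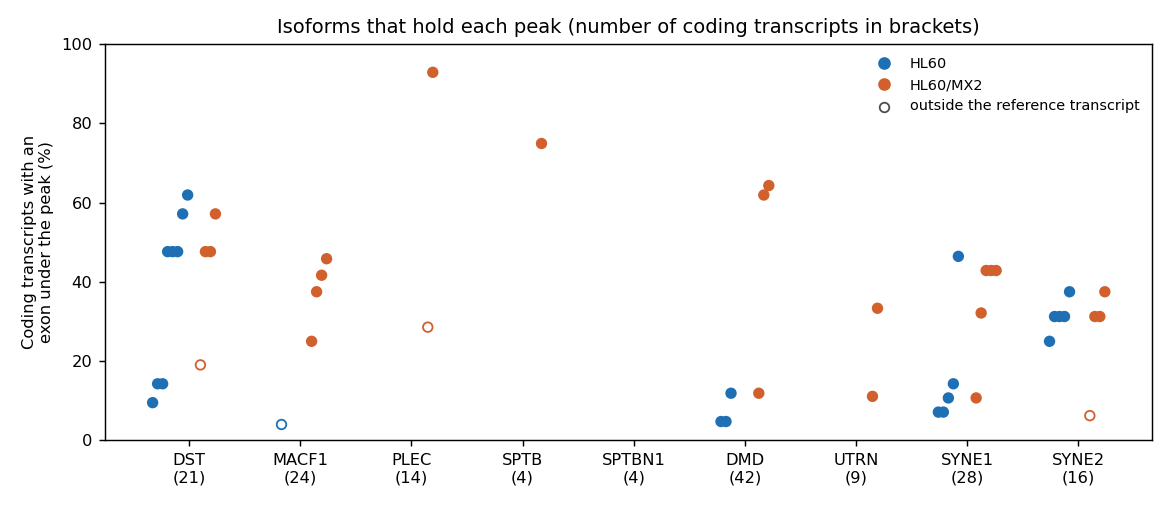
Share of the annotated coding transcripts of each gene (vertical axis, percent) that have an exon under each peak, for HL60 (blue) and HL60/MX2 (orange). Open circles are peaks outside the reference transcript. The MACF1 peak of HL60 and the open SYNE2 peak lie in a single coding transcript each, and the PLEC exon 31 peak lies in 13 of 14.

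The GC content of the members had a median of 40.5% in HL60 (35.6-54.6%) and 43.0% in HL60/MX2 (30.2-73.1%), below the medians of the lists, 45.2% and 48.0%. The reference transcripts themselves were between 41.6% (DST) and 66.8% (PLEC). GGAAA or GGAAG, searched on the mRNA strand only and with the last G of GGAAG free to open the next, occurred in 10 of 22 HL60 members and 12 of 25 HL60/MX2 members (45.5% and 48.0%), against 44.5% and 43.6% of the peaks of at least 5 bp in the lists. The HL60 peak over SYNE2 exon 78, with a score of 149.7, held the most, 5 in 132 bp, and its sequence follows with them in capitals. These sequences were chosen after their values were seen.

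SYNE2 exon 78, HL60, chr14:64600787-64600918, plus strand: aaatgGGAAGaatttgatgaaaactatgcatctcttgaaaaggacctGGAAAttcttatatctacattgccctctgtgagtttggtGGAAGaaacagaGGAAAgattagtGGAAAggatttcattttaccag

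By chromosome, 13 HL60 and 11 HL60/MX2 members lay on chromosome 6 (DST, UTRN and SYNE1), and the 2 PLEC peaks lay on chromosome 8.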

How the data were processed

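The peak lists were analysed as the authors deposited them, with 1 score per peak on a scale not given in the sources used here. Per the labels and the methods of the study, the authors trimmed reads with Cutadapt (1.9.3), aligned them to hg19 with HISAT2 (2.0.4), called peaks with MACS (version and settings not given in the sources used here) and selected those on protein-coding exons. Whether peaks were shortened to exon edges is not given in the sources used here. Starts were turned to count from 1. The genome copy was GRCh37, with a chromosome 1 of 249250621 bp, and GENCODE release 44 placed on it, and the exons of all transcripts of a gene were used. Members and lists were chosen with earlier results of these data known. Every member is named, and of related genes those with a shared peak or at least 3 peaks.

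Coding sequences were translated, and repeats were found with pyhmmer 0.12.3 (6 rounds at most, E-value of 0.001) from seeds in SPTB (codons 420 to 526), DMD (1 to 240) and PLEC (2790 to 2970). No RefSeq protein table was used here, so the translated reference transcripts stood in for RefSeq proteins. Gene assignment and transcript positions were tested on simulated data. Python 3.11.15, numpy 2.4.6, scipy 1.17.1, biopython 1.88 and matplotlib 3.10.9 were used. No tests were made, and alternatives for score, length, exons, overlap and region are given at the end.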

Additional observations from a re-analysis of the deposited data

How the results depend on the processing

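Of 50 alternatives, 37 left the value within 1.5 times (counts) or within its interval (shares), and 13 moved it. Keeping only scores at or above the median of the list left 9 members in HL60 and 13 in HL60/MX2, 0.0282 and 0.0408 per kb, 1.24% and 1.66% of exons with a peak, and 1 shared peak, the one in DMD, in each list; all 9 HL60 peaks left were in the CDS (100%). On reference transcripts alone the density was 0.131 and 0.137 per kb. With the CDS of any isoform, the shares in the CDS were 100% and 96.0%. Here 1 bp of coding sequence was enough, where the main share used the largest overlap. The HL60/MX2 peak over the alternative first exon of DST thus counted as CDS with 91 of its 366 bp. Assigning each peak to the gene of largest overlap could change no count, since no member overlapped another gene's exons on its strand. These alternatives are nevertheless among the 37. Both shared peaks stayed shared when 50% of both peaks had to overlap. No paired analysis was possible because each line has 1 library and no replicate. The depth is unknown, so what it limits cannot be stated.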

Other observations

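Other genes of the same structures carried peaks in both lines. Of 48 such genes, the HL60 list covered 22 and the HL60/MX2 list 21 (14 of them in both lists, and 19 in neither), at 0.0745 and 0.0600 peaks per kb of merged exon. Over all protein-coding genes the share with a peak was 27.0% and 29.5%, and the density 0.0694 and 0.0699 per kb. The gene counts here are to be read beside these shares, which are not matched to the 48 genes for exon length. Among the spectrin, actinin, ankyrin and adducin genes and EPB41, 9 of 16 held HL60 peaks and 10 held HL60/MX2 peaks. ANK2 and ANK3, ankyrins that tie spectrin to membrane channels, had 3 and 4 peaks in HL60 and 0 and 1 in HL60/MX2. Of the plakins DSP, EPPK1, EVPL and PPL, DSP (desmoplakin, of the desmosome) had 4 HL60 peaks and 1 HL60/MX2 peak, while the other three had none in either list.

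In the dystrophin complex, 9 of 16 genes held HL60 peaks and 7 held HL60/MX2 peaks. DAG1, which codes for dystroglycan, and the syntrophin SNTG2 had a peak shared by both lines, with HL60 and HL60/MX2 scores of 162.9 and 107 in DAG1 and of 646.6 and 85.0 in SNTG2, each on the scale of its own list. SNTB2, another syntrophin, had 1 and 4 peaks. ADD3, an adducin that caps actin at the spectrin mesh, also had a shared peak, with scores of 51.8 in HL60 and 328.6 in HL60/MX2. Of a group of 12 genes, SYNE3, SYNE4, KASH5 and nuclear envelope partners of nesprins, 3 held HL60 peaks and 3 held HL60/MX2 peaks, with SUN1 in both lists.

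The names of the peaks carry running numbers that rise with position within these genes. Between the outermost SYNE1 peaks of HL60 the numbers span 79, of which 74 belong to no listed peak, and between those of DMD in HL60/MX2 they span 230, of which 227 do. What the other numbers stand for is not stated in the lists.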
